A study of Danio rerio with 12 samples.

Results

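The small TIM proteins are soluble chaperones of the mitochondrial intermembrane space. In zebrafish they are encoded by timm8a, timm8b, timm9, timm10, timm10b, and timm13. All 6 genes were found by their symbols in both count tables, among 31778 genes, and all 6 passed the filter on low counts in both genotypes. RNA was sequenced from 2 fractions of whole larvae at 5 days post fertilization (dpf). The authors named AB as the background of their WT line and optimized the fractionation in AB fish. The pellet formed at 14000 g was the membrane-bound (MB) fraction, which holds mitochondria and ER with their ribosomes. What then sedimented at 100000 g from the remaining supernatant was the high-speed (HS) fraction, which holds free polysomes and also ribosomes on pieces of ER. Wild type (WT) larvae came from crosses between chchd4a+/+ fish. The mutants, chchd4a-/- (mia40a -/- in the labels), came from crosses between heterozygous carriers and were picked under a fluorescence microscope at 4 dpf. Larvae were pooled for each fractionation, and both genotypes carried the transgene Tg(Xla.Eef1a1:mlsEGFP)cms1, which puts green fluorescent protein into mitochondria. There were 3 libraries in each of the 4 groups (WT HS, WT MB, mutant HS, mutant MB), 12 in all. The labels do not say whether these came from separate clutches, so the p-values measure the spread between libraries, and they name no batch, so that genotype and any batch that followed it cannot be told apart.

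Carrier proteins of the inner membrane and β-barrel proteins of the outer membrane are hydrophobic and pass the aqueous intermembrane space bound to small TIM chaperones. TIM9 and TIM10 form a hexamer that escorts carrier and β-barrel proteins, and TIM8 and TIM13 form a second hexamer with fewer clients, among them TIM23 in yeast. TIM10B, regarded as the counterpart of Tim12 in yeast, docks the chaperones to the TIM22 translocase, which inserts carriers into the inner membrane. Each small TIM protein holds a pair of CX3C motifs, whose cysteines are oxidized in the intermembrane space by CHCHD4 (Mia40), the receptor of the MIA import pathway. The mutated gene chchd4a encodes this receptor, for which zebrafish have a further paralogue. The small TIM proteins are among the classical clients of the receptor. Loss of TIMM8A causes deafness-dystonia syndrome in humans.

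Gene counts summed to between 45621399 and 96059775 per library, and a member had between 87 and 5221 counts in a library. WT HS replicate 1 stood apart. Over genes, it correlated with the other WT HS libraries at 0.915 and 0.889 in log2 CPM, against 0.992 between these, and 30.03% of its counts came from spike-in RNA, against 1.77% to 14.2% in the other 11 libraries. CPM is a count scaled to a library size that was normalized with TMM. The fractions were checked with marker genes. The 13 genes that code for proteins in the mitochondrial genome took 11.7% to 17.7% of the gene counts in WT MB and 1.48% to 1.72% in WT HS, and 5.01% to 9.46% in mutant MB and 1.19% to 1.87% in mutant HS. Genes of cytosolic ribosomal proteins (80) took 5.36% to 8.22% in WT MB, 9.90% to 11.0% in WT HS, 4.98% to 6.50% in mutant MB, and 13.7% to 16.5% in mutant HS. The 13 ER genes took 0.185% to 0.255% in the MB libraries and 0.138% to 0.161% in the HS libraries, and no marker gene was at 0 throughout a group.

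The mRNA of the mutated gene was read first. chchd4a had 3.80, 12, and 12.4 CPM in WT HS replicates 1 to 3 and 4.57, 5.27, and 5.46 CPM in WT MB. In the mutant it had 17.5, 11.4, and 27.0 CPM in HS and 6.68, 7.89, and 8.18 CPM in MB. No mutant group was lower than WT, and in MB every mutant library lay above every WT library, as for 13.9% of all genes. The log2 change from WT was 0.98 in HS (SE 0.39, adjusted p = 0.0938 by edgeR) and 0.57 in MB (SE 0.39, adjusted p = 0.679 by edgeR). As the counts are for the whole gene, they do not show whether the transcript carries the mutation.

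To see where the small TIM mRNAs were found, the levels were compared between the fractions of each genotype. The fitted log2 MB/HS was below 0 for all 6 in both genotypes, that is, the level was higher in HS, although for timm10b in WT the value was within its error and its sign changed with the settings. In the mutant, all 6 were called HS-enriched, at 2.01-fold (timm13) to 3.69-fold (timm9) more in HS. In WT, only timm9 and timm10 passed the test, at 2.61-fold and 2.60-fold more in HS, and the fitted values of the others ran from a log2 MB/HS of -0.11 (timm10b) to -1.20 (timm8a). Summed over the 6 genes, the level lay between 86.6 and 102.4 CPM in each of the 6 MB libraries of both genotypes and between 128.1 and 322.8 CPM in the 6 HS libraries.

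The genes of the TIM9-TIM10 chaperone were clearly separated between the fractions. The carrier chaperone gene timm9 had 24.8, 39.6, and 40.4 CPM in WT HS, and 15.6, 12.8, and 11.8 CPM in WT MB. The mutant had 41.6, 27.9, and 63.98 CPM in HS, and 11.9, 12.5, and 13.0 CPM in MB. No MB library of either genotype reached the lowest HS library, and the 6 MB values were close together, whereas the HS values differed more than 2-fold. The log2 MB/HS was -1.38 in WT (SE 0.25, n = 3 libraries per fraction, adjusted p = 0.0123 by the quasi-likelihood F test of edgeR, adjusted over all genes) and -1.88 in the mutant (SE 0.28, adjusted p = 0.00178 by edgeR).

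Its partner timm10 had 46.3, 48.6, and 34.2 CPM in WT HS, and 17.8, 16.3, and 15.4 CPM in WT MB. In the mutant, timm10 had 30.9, 22.0, and 47.5 CPM in HS, and 11.5, 15.7, and 15.5 CPM in MB. Again, the fractions did not overlap in either genotype. The log2 MB/HS was -1.38 in WT (SE 0.21, adjusted p = 0.00762 by edgeR) and -1.29 in the mutant (SE 0.27, adjusted p = 0.00728 by edgeR). timm10 differed from the other 5 members in WT HS replicate 1. There it was near its highest level, whereas each of the others had its lowest HS level in that library.

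The TIM22-associated member timm10b had 2.78, 7.36, and 9.19 CPM in WT HS, and 5.19, 6.23, and 6.47 CPM in WT MB. Here the WT fractions overlapped, with HS replicate 1 below every MB library and HS replicates 2 and 3 above them. In the mutant, HS had 12.8, 10.5, and 13.2 CPM and MB had 5.55, 6.60, and 6.58 CPM, without overlap. The log2 MB/HS was -0.11 in WT (SE 0.41, adjusted p = 0.851 by edgeR), which turned to 0.03 with a replicate block and to 0.18 without WT HS replicate 3, so no direction can be given. In the mutant it was -1.02 (SE 0.20, adjusted p = 0.00497 by edgeR).

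Among the genes of the TIM8-TIM13 chaperone, timm8a, the orthologue of the human disease gene, had 13.0, 34.8, and 39.0 CPM in WT HS, and 12.6, 13.3, and 11.8 CPM in WT MB. The mutant had 35.5, 18.5, and 55.8 CPM in HS, and 11.3, 11.6, and 13.7 CPM in MB. HS replicate 1 lay within the range of the MB libraries in WT, and in the mutant the fractions did not overlap. The log2 MB/HS was -1.20 in WT (SE 0.39, adjusted p = 0.0581 by edgeR) and -1.64 in the mutant (SE 0.34, adjusted p = 0.00634 by edgeR).

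The second TIM8 gene, timm8b, had 10.6, 27.9, and 32.7 CPM in WT HS, and 16.3, 16.4, and 16.3 CPM in WT MB. In mutant larvae, timm8b had 46.4, 30.8, and 57.9 CPM in HS, and 17.01, 19.5, and 19.4 CPM in MB. As for timm10b, WT HS replicate 1 fell below all WT MB libraries, and the mutant fractions did not overlap. The log2 MB/HS was -0.54 in WT (SE 0.39, adjusted p = 0.324 by edgeR) and -1.32 in the mutant (SE 0.23, adjusted p = 0.00338 by edgeR).

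The common partner of both TIM8 proteins, timm13, had 30.5, 45.6, and 50.95 CPM in WT HS, and 28.1, 28.9, and 24.9 CPM in WT MB. In the mutant it had 63.1, 43.7, and 84.3 CPM in HS, and 29.5, 36.7, and 32.7 CPM in MB. The fractions did not overlap in either genotype, but in WT the lowest HS and the highest MB library were close. The log2 MB/HS was -0.63 in WT (SE 0.23, adjusted p = 0.0851 by edgeR) and -1.0 in the mutant (SE 0.24, adjusted p = 0.0124 by edgeR). In RefSeq's gene table (GRCz12tu, another assembly than that of the counts), timm13 shares 5 bases at one end with tmprss9, and the other members overlap no gene.

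**Figure D1:**
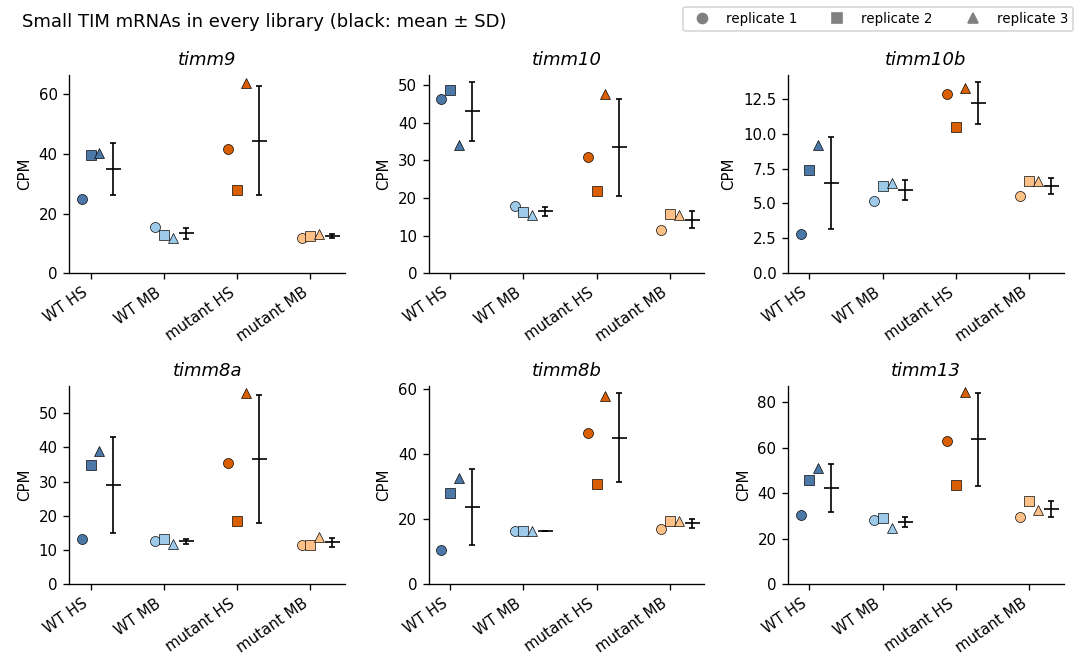
Level of each small TIM mRNA (CPM, linear axis from 0) in the 12 libraries, by group, with symbols for the replicate number and the mean ± SD of 3 libraries in black. The MB libraries lie close together in both genotypes, the HS libraries are spread widely, and WT HS replicate 1 is the lowest HS library of WT for every gene except timm10.

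In the counts over the family, 2 of 6 members were HS-enriched in WT, where 13.3% of all 23733 genes tested were called on that side. Both were highly HS-enriched (log2 MB/HS of -1 or below), against 10.8% of all genes. In the mutant, 6 of 6 were HS-enriched, against 20.0% of 23854 genes, and all 6 were highly HS-enriched, against 13.8%. The latter count included timm13 (-1.004) and timm10b (-1.02), both close to the cut of -1. With all 12 libraries in one fit they were at -0.951 and -0.964, past the cut on the side of 0. Every MB library lay below every HS library for 3 of 6 members in WT and for 6 of 6 in the mutant, where 20.8% and 23.8% of all genes did so. The median log2 MB/HS of the members was -0.92 in WT, with 0.08 for all genes, and -1.31 in the mutant, with -0.01 for all genes. With the small number of members, and as these were chosen with earlier results known, no test of the family as a whole was made.

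The count in WT depended on single libraries. Without HS replicate 1, 5 of 6 members were HS-enriched, with 28.0% of all genes on that side. The one left out of the count was timm10b, at a log2 MB/HS of -0.47 (adjusted p = 0.0517 by edgeR). When replicate 1 of both WT fractions was left out, all 6 were called, with 33.7% of all genes. Without MB replicate 2 or without MB replicate 3, no member was called, but edgeR then called 0 genes and 1 gene of the whole table, and timm10 had adjusted p-values of 0.0664 and 0.0740. With DESeq2 on the 6 WT libraries, 4 of 6 members were HS-enriched, as timm8a and timm13 were added, with 20.0% of all genes. In the fit of all 12 libraries, timm8a was called with timm9 and timm10 (adjusted p = 0.0349), 3 of 6 with 16.8% of all genes. In the mutant, timm13 alone lost its call, when MB replicate 1, 2, or 3 was left out (adjusted p = 0.0764, 0.0521, and 0.0550 by edgeR).

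Any direction given here is relative to other genes. With libraries scaled to ERCC spike-in RNA, not TMM, all genes had a median log2 MB/HS of 2.62 in WT and 1.92 in the mutant. Every member then had a value above 0. Only timm10b in WT and timm13 in the mutant were called as MB-enriched. Of all genes, 17823 of 23733 in WT and 18143 of 23854 in the mutant were called, counting both directions. Relative to these medians, the members lay at -1.65 (timm9) to -0.42 (timm10b) in WT and at -1.70 (timm9) to -0.83 (timm13) in the mutant. Scaling to library totals put the median of all genes at 0.58 and 0.81, and relative to it the members lay between -1.50 and -0.25 in WT and between -1.88 and -0.99 in the mutant. Under library totals the members all lay below 0 before the median was taken off, with the exception of timm10b in WT (0.34).

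**Figure D2:**
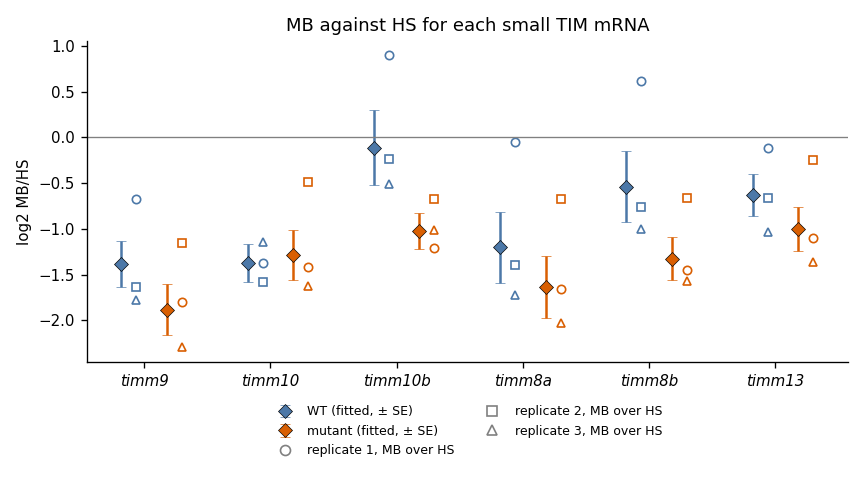
Log2 MB/HS of each small TIM mRNA in WT (blue) and the mutant (orange), below 0 where the level was higher in HS. Diamonds are fitted values ± SE from 3 libraries per fraction, and open symbols give MB over HS for libraries of the same replicate number, of which 2 lie above 0, WT replicate 1 of timm10b (0.90) and of timm8b (0.62).

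Next, it was asked whether the difference between the fractions changed with the genotype. The fitted change in log2 MB/HS, mutant over WT, was negative for 5 of 6 members, a count that rested on single libraries. It was -0.84 for timm10b (SE 0.47), -0.73 for timm8b (SE 0.48), -0.45 for timm9 (SE 0.40), -0.38 for timm8a (SE 0.56), and -0.32 for timm13 (SE 0.36). For timm10 it was 0.15 (SE 0.37). The median of all genes was -0.07. Of the marker genes, the change was below 0 for 80 of 80 of the cytosolic ribosomal proteins and 13 of 13 of the mitochondrial genome. Among the ER genes it was below 0 for 7 of 13. Without mutant HS replicate 3, timm8a turned to 0.06 and timm9 moved to -0.09, and without mutant HS replicate 2, timm10 turned to -0.02. Scaling to spike-ins turned timm10 to -0.41, where the median of all genes was -0.74. None passed the test, with adjusted p-values from 0.442 for timm10b to 0.898 for timm10 (edgeR, 12 libraries), and none had an unadjusted p under 0.05. Of all 23452 genes tested, 0 were called (0.00%) by edgeR, 3374 had an unadjusted p under 0.05, and DESeq2 called 796, with no member among them. With the replicate block, which keeps the pairs of fractions, edgeR called 796 genes (3.39%) and again no member, but timm10b, at -0.98, had an unadjusted p of 0.0218 (adjusted p = 0.157). The larger number of HS-enriched members in the mutant is thus not shown to be a difference between genotypes. Nor is it shown that the genotypes were alike, since 2 SE to either side of the estimate reached from -1.78 to 0.09 for timm10b and from -1.69 to 0.23 for timm8b.

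The same libraries were then read across genotypes within a fraction. In MB, the mutant levels were close to those in WT. The log2 change ran from -0.22 (timm10, SE 0.26) to 0.27 (timm13, SE 0.25), and no member passed the test, with adjusted p-values of at least 0.804 by edgeR and no unadjusted p under 0.05. Few genes were called at all in MB, 9 of 23452 (0.0384%) by edgeR and 484 by DESeq2, which included no member. Every mutant MB library lay above every WT MB library for timm8b and timm13, 2 of 6 members, against 13.9% of all genes.

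In HS, 5 of 6 members had a higher fitted level in the mutant, but no call was made. Without mutant HS replicate 3 only 3 of 6 were higher, as timm9 turned to -0.01 and timm8a to -0.11. The log2 change was 0.92 for timm8b (SE 0.34, adjusted p = 0.0739 by edgeR), 0.91 for timm10b (SE 0.33, adjusted p = 0.0703), and 0.59 for timm13 (SE 0.26, adjusted p = 0.121). These 3 had an unadjusted p under 0.05, as did 8232 of all 23452 genes. The changes for timm9 (0.35, SE 0.28) and timm8a (0.34, SE 0.40) were smaller than their spread allows to tell, and timm10 had -0.36 (SE 0.26). Over all genes, 19.2% were called in HS, with a median change of 0.06. For timm10b alone, every mutant HS library (10.5 CPM or more) lay above every WT HS library (9.19 CPM or less), against 16.3% of all genes. The summed level of the family was 128.1, 203.9, and 206.4 CPM in WT HS and 230.4, 153.2, and 322.8 CPM in mutant HS, so the groups overlapped.

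Calls in HS came and went with the settings. DESeq2 called timm8b and timm10b (adjusted p = 0.0363 and 0.0287), with 11.5% of all genes called as higher. Without WT HS replicate 3, timm8b and timm10b passed with edgeR (log2 change 1.18 and 1.22), with 7.34% of all genes called as higher. Without mutant HS replicate 2, timm8b and timm13 did (1.12 and 0.78), with 6.07% of all genes. When replicate 1 of both WT fractions was left out, timm10b alone passed, at a log2 change of 0.60, with 7.16% of all genes. Scaled to spike-ins, 4 of 6 members were called as higher, where 55.3% of all genes were. Genes of cytosolic ribosomal proteins, which serve here as the marker of free polysomes, were read beside these values. In MB they had a median log2 change of -0.49, where the small TIM genes had 0.01. In HS their median was 0.43, with 1 of 80 called as higher by edgeR, against 7.25% of all genes. Their share of the counts was 13.7% or more in each mutant HS library and 11.0% or less in each WT HS library. The part of this in the values of the small TIM genes was not tested. In RNA from whole larvae, fewer cells of a type and less RNA per cell cannot be told apart here.

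**Figure D3:**
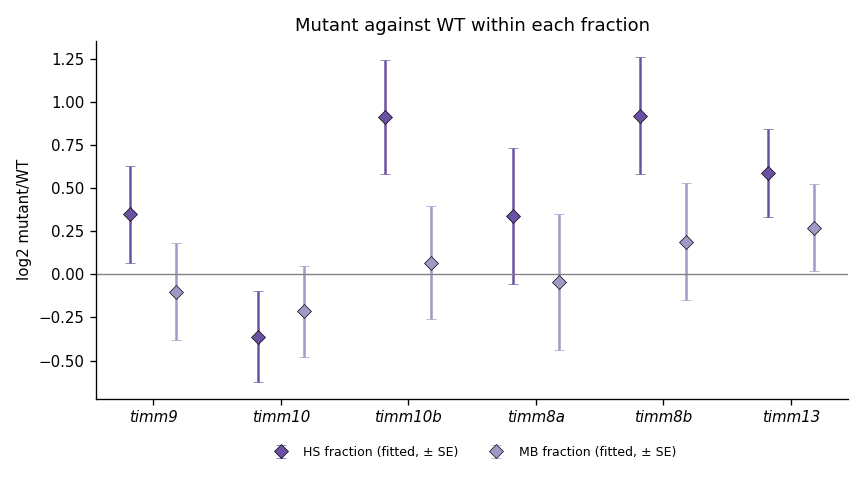
Log2 change of each small TIM mRNA from WT to the mutant in HS (dark) and in MB (light), fitted values ± SE from 3 libraries per group. In MB the values lie between -0.22 and 0.27, and in HS between -0.36 and 0.92.

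For each gene, the order of the mean levels was compared with the spread between libraries. For timm8a, timm8b, timm9, timm10b, and timm13, mutant HS was highest and WT HS second. For timm8b, mean levels were 45.0 ± 13.6 CPM in mutant HS, 23.7 ± 11.6 CPM in WT HS, 18.6 ± 1.41 CPM in mutant MB, and 16.3 ± 0.0757 CPM in WT MB (SD, n = 3 each). Neighbours in this order overlapped, except that the mutant MB libraries all lay above those of WT MB. For timm10 the order was different, with 43.0 ± 7.76 CPM in WT HS, 33.5 ± 13.0 CPM in mutant HS, 16.5 ± 1.22 CPM in WT MB, and 14.2 ± 2.31 CPM in mutant MB (SD, n = 3 each), and of the neighbours in this order only mutant HS and WT MB did not overlap. The libraries of a group differed more in HS. The coefficient of variation of a member was 18.0% to 51.2% in WT HS and 12.2% to 51.1% in mutant HS, but 0.463% to 14.8% in WT MB and 4.34% to 16.3% in mutant MB.

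Partners in a chaperone complex were also compared within each library, as a ratio of counts does not depend on how libraries are scaled. The ratio also depends on the lengths of both transcripts, so only its differences between groups can be read. For 5 ratios, the mean log2 difference between fractions (averaged over genotypes) and between genotypes (averaged over fractions) was tested with an exact permutation test (two-sided), 10 tests in all. The smallest p that this test can give is 0.005. It permutes HS and MB libraries separately, although both come from the same pools if replicate numbers pair them. With the fractions of one number kept together, the test between genotypes compares 3 pools with 3 and cannot give a p below 0.1, and the test between fractions swaps labels within a pool and cannot give one below 0.0313. With pairs kept in both tests, no difference could pass after adjustment over the 10 tests, because these smallest p-values are too large. That form therefore decides nothing, and the calls below hold only if the libraries are taken as independent.

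The counts of the TIM9-TIM10 hexamer genes relative to those of the TIM8-TIM13 hexamer were compared first. Members of one sum did not always move alike, and the ratio does not show which of them moved. Between WT fractions, log2 MB/HS was -1.38 for timm9 and timm10 and -1.20 for timm8a, but -0.54 for timm8b and -0.63 for timm13. Between genotypes in HS, the log2 change was 0.35 for timm9, -0.36 for timm10, and 0.34 for timm8a. Those of timm8b and timm13 were 0.92 and 0.59. The log2 of (timm9+timm10)/(timm8a+timm8b+timm13) was 0.39, -0.30, and -0.72 in WT HS and -0.77, -1.01, and -0.96 in WT MB. In the mutant it was -1.0, -0.90, and -0.83 in HS and -1.30, -1.27, and -1.21 in MB. In each genotype the MB libraries lay below all HS libraries, and in each fraction the mutant libraries lay below all WT libraries. The mean difference was -0.53 between MB and HS and -0.52 between mutant and WT (exact p = 0.005, adjusted p = 0.0167 over 10 tests, for both). WT HS spread widely, from -0.72 to 0.39, and without its replicate 1 the differences were -0.38 and -0.37 and remained past the threshold (exact test, adjusted p = 0.0167 for both). The first call was lost without WT MB replicate 2 (exact test, adjusted p = 0.0833) or 3 (0.0667). The second was lost without mutant HS replicate 1 (0.110), 2 (0.0625), or 3 (0.125). With pairs kept, the first had an exact p of 0.0313 (adjusted p = 0.104) and the second one of 0.1 (adjusted p = 0.167), each the smallest that form can give.

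The TIM22-associated timm10b was set against timm10. The log2 of timm10b/timm10 was -4.06, -2.72, and -1.89 in WT HS, -1.78, -1.39, and -1.25 in WT MB, -1.27, -1.07, and -1.84 in mutant HS, and -1.06, -1.25, and -1.23 in mutant MB. In each fraction every mutant library lay above every WT library, although the nearest libraries of the groups were less than 0.1 apart. The mean difference between mutant and WT was 0.90 (exact p = 0.005, adjusted p = 0.0167), 1.50 in HS and 0.29 in MB. With the pools as units, the exact p was 0.1 (adjusted p = 0.167). The difference was 0.60 without WT HS replicate 1 (exact test, adjusted p = 0.0313), and was no longer called without mutant HS replicate 1 (0.110), 2 (0.140), or 3 (0.150). The difference between MB and HS, 0.82, did not pass (exact p = 0.035, adjusted p = 0.0667).

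The other ratios did not pass. timm9/timm10 was 0.34 to 0.43 on the log2 scale in mutant HS and -0.90 to 0.24 in WT HS, and differed by 0.43 between mutant and WT (exact p = 0.025, adjusted p = 0.0625). timm8a/timm13 differed by -0.50 between MB and HS (exact p = 0.04, adjusted p = 0.0667) and timm8b/timm13 by -0.05 (exact p = 0.86). For these pairs, no change of the ratio was thus shown. Without WT HS replicate 1, 9 of the 10 differences passed, and without WT HS replicate 3, 5 did. Without mutant HS replicate 1 or 3, 1 of 10 passed.

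**Figure D4:**
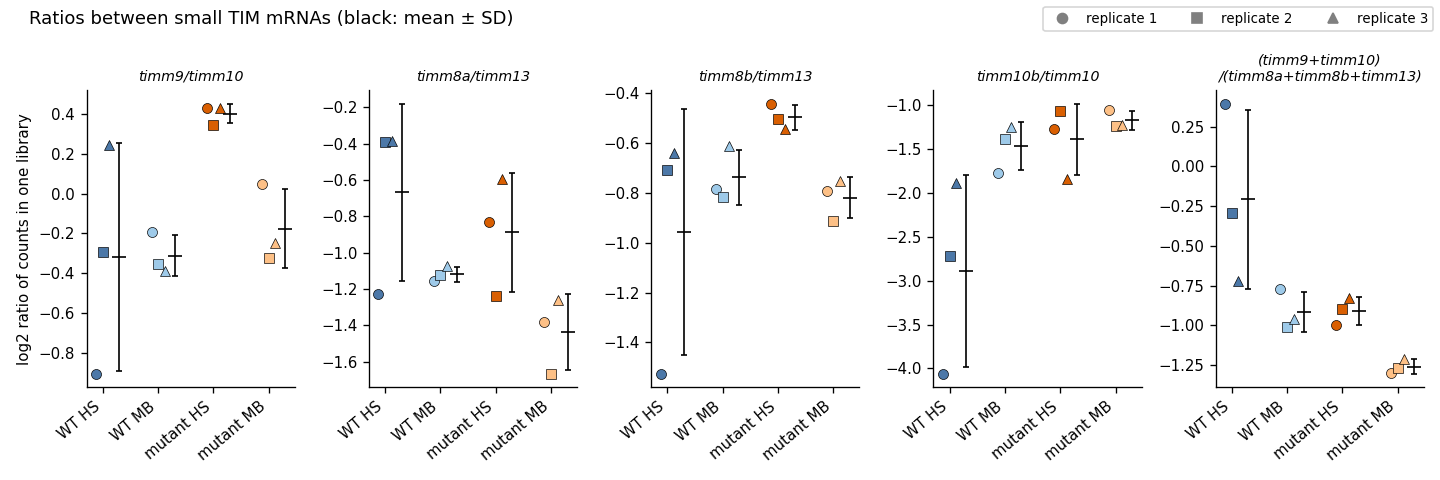
Log2 ratio of counts between small TIM genes in each library, by group, with symbols for the replicate number and the mean ± SD of 3 libraries in black (each panel has its own scale, not from 0). In the rightmost panel, MB lies below HS in each genotype and the mutant below WT in each fraction. WT HS replicate 1 is the highest WT HS library in that panel and the lowest in the other panels.

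How alike the members were was measured as the root mean square difference between their log2 CPM profiles over the 12 libraries, each centred on its own mean. This is a description, as the profiles share libraries. timm8b and timm10b were the closest pair (0.23), followed by timm8b and timm13 (0.27) and by timm9 and timm8a (0.28). The most distant pair was timm10 and timm10b (0.83). From the mean profile of the 6 members, timm13 had the smallest difference (0.18) and timm10 the largest (0.46). Of 18131 other genes with a symbol and a mean of at least 1 CPM, with a median difference of 0.78 from the mean profile, the nearest were gemin2 (0.0696), taf10 (0.0826), pdrg1 (0.0859), abitram (0.0868), and isoc2 (0.0923). A mean over 6 genes is smoother than a single gene, so that other genes can be nearer to it than the members are. Of these genes, gemin2 encodes a factor that assembles spliceosomal RNPs and taf10 a subunit of TFIID. For gemin2, the log2 MB/HS was -0.88 in WT and -1.37 in the mutant, near the medians of the small TIM genes.

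Genes that act in the same pathway were taken as lists for comparison. The twin CX9C proteins are the other main group of MIA substrates. Of 24 such genes tested, 13 were HS-enriched and 0 MB-enriched in WT, and 20 and 0 in the mutant. Of all genes, 13.3% were called on the HS side and 12.4% on the MB side in WT, and 20.0% and 17.0% in the mutant. The medians of the log2 MB/HS of the 24 genes were -1.20 and -1.55. Their most HS-enriched gene in WT was ndufb7, a subunit of complex I (-2.03, SE 0.24). In HS, 7 of the 24 were called as higher in the mutant by edgeR and 0 as lower (7.25% of all genes were called as higher), with a median log2 change of 0.66, where the small TIM genes had 0 of 6 and a median of 0.47. In the MIA machinery, 1 of 4 genes was HS-enriched in WT, against 13.3% of all genes. In the mutant 3 of 4 were, against 20.0%. The medians were -0.86 in WT and -1.31 in the mutant. The called gene in WT was gfer, which encodes the sulfhydryl oxidase that reoxidizes CHCHD4 (-1.21, SE 0.28). No difference between these lists and the small TIM genes was tested.

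**Figure D5:**
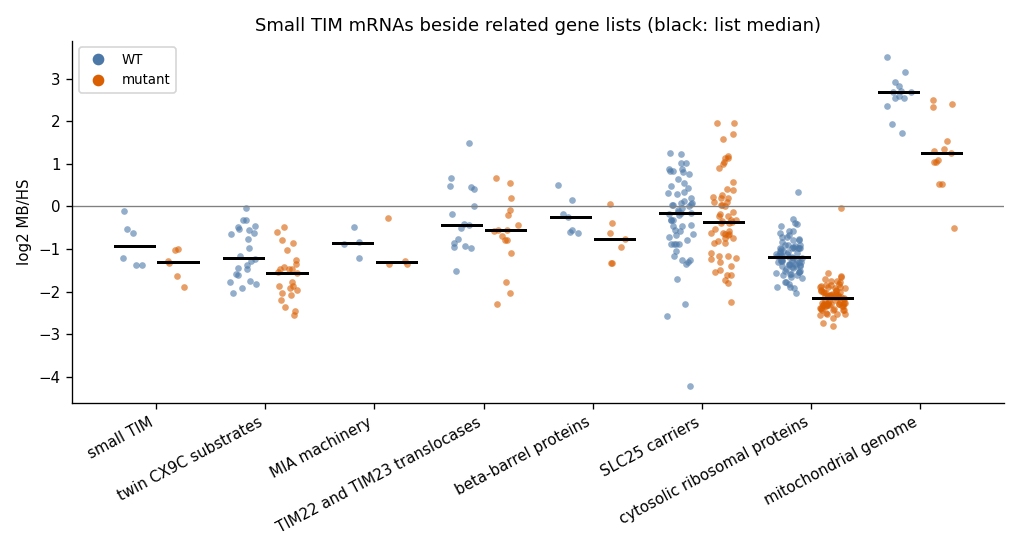
Log2 MB/HS of the small TIM genes beside related lists, markers of free polysomes (cytosolic ribosomal proteins), and the mitochondrial genome, in WT (blue) and the mutant (orange), 1 point per gene, with the list median in black. The small TIM genes have medians of -0.92 and -1.31, and those of the mitochondrial genome 2.67 and 1.26.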

How the data were processed

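The MB and HS fractions of WT and chchd4a-/- larvae were isolated in a buffer with cycloheximide. Their RNA, with ERCC spike-ins added, was captured by polyA and read from both ends. The authors estimated transcript levels with Salmon (version 1.4.0 in the submitters' processing notes) on GRCz11 (danRer11) with Ensembl annotation. The deposited values are expected counts per gene, not scaled to depth, for 31778 genes and 92 spike-ins, and 30.6% of them are not whole. Symbols were matched for 28790 genes. chchd4a was matched through a synonym, chchd4.

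Expected counts were rounded, spike-ins left out, and genes with more than 50 counts over the 6 libraries of a genotype kept (in each genotype for the fit of 12 libraries). edgeR 4.0.16 (R 4.3.3) scaled libraries with TMM and gave quasi-likelihood F tests with a small prior count, adjusted by Benjamini-Hochberg over all genes. A gene was called at an adjusted p of at most 0.05. The SE is the size of the log2 value divided by the square root of F. Tests were tried on simulated data. Profiles were compared on log2(CPM + 0.1). Alternatives were DESeq2 1.42.0, library totals, spike-in totals, TMM without the mitochondrial genome, no filter, a minimum of 10 counts per library, each library left out, an adjusted p of at most 0.01, a replicate block, all 12 libraries in one fit, and replicate 1 of both WT fractions left out.

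The members and lists were chosen with earlier results of these data known. Genes named are the members, chchd4a, the 5 nearest profiles, and in each list the called gene with the largest positive and the largest negative log2 MB/HS in WT. tmprss9 was added as it overlaps a member. Replicate numbers were taken to pair fractions within a genotype, since the deviations of equal numbers from their group means correlated at 0.61, 0.58, and 0.49 in WT and 0.31, 0.33, and 0.55 in the mutant over 18147 genes. Unequal numbers in WT also correlated, at up to 0.53. A list of short proteins was not made. Python 3.11.15 with numpy 2.4.6, pandas 2.3.3, and scipy 1.17.1 was used.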

Additional observations from a re-analysis of the deposited data

How the results depend on the processing

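Limits come first from the number of libraries, 3 in each group, and from the spread in HS, since members had at least 87 counts in every library. Spike-in shares differed between fractions, and unequal addition was not tested. Levels are relative to all other mRNA in a library, not amounts per larva.

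In WT, 2 members were HS-enriched. The number was 4 with DESeq2, 1 with library totals, 0 with spike-in totals, 3 with all 12 libraries in one fit, and 1 at an adjusted p of at most 0.01. Leaving out single libraries gave 0 to 5, and it was 6 when replicate 1 of both WT fractions was left out. Of all 23733 genes in WT, edgeR called 9674 with library totals and 17823 with spike-in totals, counting both directions. In the mutant, the 6 HS-enriched members were 1 with library totals and 0 with spike-in totals, and 5 to 6 with single libraries left out. There edgeR called 13886 of all 23854 genes with library totals and 18143 with spike-in totals, again counting both directions. Spike-in totals put the log2 MB/HS of all 6 members above 0 in both genotypes. In WT it was 0.97 for timm9, 1.24 for timm10, 2.20 for timm10b, 1.09 for timm8a, 1.74 for timm8b, and 1.77 for timm13. In the mutant it was 0.22 for timm9, 0.84 for timm10, 0.97 for timm10b, 0.51 for timm8a, 0.74 for timm8b, and 1.09 for timm13. In HS, the number of members changed in the mutant was 0, against 2 with DESeq2, 4 with spike-in totals (timm8b, timm9, timm10b, and timm13, where the median of all genes moved to 1.82 and 55.3% of them were called as higher), and 0 to 2 with single libraries left out. It was 1 when replicate 1 of both WT fractions was left out, a choice made after the data were seen. The number of members whose fraction difference changed with genotype, and the number changed in MB, was 0 in every alternative run. Of the 10 partner ratio differences, 3 passed, and 1 to 9 with single libraries left out. When the test between genotypes kept the fractions of equal number together, a form added after the data were seen, 1 difference passed. This was a difference between MB and HS, for which the fractions were not kept together. No difference between genotypes passed in that form (adjusted p of at least 0.167 by the exact test). None could, as the smallest p of that form is 0.1. The causes of these changes were not tested.

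With a replicate block that paired the fractions of a genotype, 2 members in WT and 6 in the mutant were HS-enriched. With it, 0 members changed with genotype (796 genes of the table did, and timm10b had an unadjusted p under 0.05). Of the partner ratio differences, 2 passed when only the tests between fractions were paired. Both were differences between genotypes, for which pairs were not kept, and no difference between fractions passed. Across genotypes the numbers were not taken to pair libraries. The correlations of deviations there ran from -0.20 to 0.35 for equal numbers, and reached 0.36 for unequal numbers. The highest for equal numbers, in HS replicate 3, was no smaller than some within the mutant, so these values alone do not settle the pairing. A block across genotypes gave 0 members in HS (0 genes of the table) and 0 in MB (396 genes of the table).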

Other observations

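Gene families that include clients of the small TIM chaperones were read from lists of their own. Carrier genes were taken by symbol, so not each need encode a client. Of 58 SLC25 carrier genes tested, 10 were HS-enriched and 2 MB-enriched in WT by edgeR, and 21 and 7 in the mutant, with medians of -0.14 and -0.35 for the log2 MB/HS. Over all genes, 13.3% were called on the HS side and 12.4% on the MB side in WT, and 20.0% and 17.0% in the mutant, which is the background for each count here. The values ranged from -4.22 to 1.26 in WT. The lowest was that of 1 of 2 genes with the symbol slc25a1 (ENSDARG00000080000), with 5.94 ± 5.49 CPM in WT HS and 0.314 ± 0.173 CPM in WT MB (SD, n = 3 each), and in mutant HS it had 0.298 ± 0.126 CPM. The other gene of that symbol (ENSDARG00000076381) was MB-enriched, at a log2 MB/HS of 1.24 in WT and 1.96 in the mutant. The highest value among called genes was that of a gene with the symbol slc25a25 (ENSDARG00000035468), with 0.551 ± 0.224 CPM in WT HS and 1.28 ± 0.255 CPM in WT MB (log2 MB/HS 1.26, SE 0.36), and a second gene of that symbol (ENSDARG00000010572) had -0.47 and was not called.

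Of 7 genes of β-barrel proteins, 0 were called in WT by edgeR and 5 were HS-enriched in the mutant, with medians of -0.26 and -0.76. In WT, 3 of them had an unadjusted p under 0.05, as did 9857 of all 23733 genes. DESeq2 called 3 of them in WT, and 8430 of all genes. Of 16 genes of the TIM22 and TIM23 translocases, 4 were HS-enriched and 0 MB-enriched in WT, and 6 and 1 in the mutant, with medians of -0.43 and -0.56. The most HS-enriched of these in WT was dnajc19, which encodes a J-protein of the import motor (-1.51, SE 0.22). The genes of cytosolic ribosomal proteins had medians of -1.19 and -2.14 in WT and the mutant, with 52 and 79 of 80 HS-enriched, and rpl29 had the lowest WT value (-2.04, SE 0.34). Of the 13 genes of the mitochondrial genome, 13 were MB-enriched in WT, highest for mt-atp8 (3.50, SE 0.52), and 7 in the mutant. Of the 13 ER genes, 5 were MB-enriched and 1 HS-enriched in WT, and 4 and 3 in the mutant. Their extremes among called genes in WT were the sec61a1 gene ENSDARG00000005675 (1.55, SE 0.25) and sec61g (-1.18, SE 0.28), which encode subunits of the same translocon, and a second sec61a1 gene (ENSDARG00000021669) had 0.37 and was not called.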
